A study of Mus musculus with 18 samples.

Results

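The tumour necrosis factor (TNF) superfamily was followed here in bone-marrow-derived macrophages, the cells grown from mouse marrow precursors, across 6 groups of 3 RNA libraries. Its members were taken by symbol: every row of the gene count table that starts with Tnfsf (ligands) or Tnfrsf (receptors), together with Lta, Ltb, Ltbr, Fas and Fasl. Tnf itself and Cd40 were outside this choice and are given only for context. The table of 43280 symbols held 38 such rows, of which 22 are receptors, 15 are ligands and 1 is the transcript Tnfsf13os opposite Tnfsf13. At least 1 CPM (read count scaled by library size) in at least 3 libraries was reached by 26 of the 38, namely 16 receptors, 9 ligands and Tnfsf13os, and by 14158 of all 43280 symbols.

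All mice were wild-type C57BL/6J and had received PBS, 1xLPS or 4xLPS in vivo. LPS (lipopolysaccharide) is the endotoxin of Gram-negative bacteria. Macrophages from each arm were left unstimulated (PBS_NO, 1xLPS_NO and 4xLPS_NO) or stimulated with LPS in culture (PBS_LPS, 1xLPS_LPS and 4xLPS_LPS). Neither the LPS amounts, the length of stimulation nor the age of the mice is given in the sources used here, and the labels do not say whether 4x counts injections or a dose. Whether the 3 libraries of a group stand for 3 mice or cultures is not said either, and each p-value reflects library-to-library spread that could be technical only. The sample titles, the series design and the column names give the arms used here, while the treatment field exchanges PBS and 4xLPS in 12 of the 18 samples. If that field were right for the sample titles, every statement below on PBS and 4xLPS would hold with the names of those arms exchanged.

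Ligands of this superfamily are mostly trimers on the cell surface or shed from it. Their receptors fall into those with a cytoplasmic death domain, such as Fas and TNFR1 (Tnfrsf1a), those that recruit TRAF adaptors directly, such as TNFR2 (Tnfrsf1b), and decoys that bind a ligand without signalling. In macrophages the family is known for autocrine TNF signalling, for costimulation of T cells through OX40L (Tnfsf4) and 4-1BBL (Tnfsf9), and for the switch towards osteoclasts that RANKL (Tnfsf11) sets off through RANK (Tnfrsf11a).

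Total counts per library lay between 9296453 and 54050622. All 9 macrophage markers on the list used were detected, with a summed level of 12961 to 25402 CPM. Of 10 T and NK cell markers 1 was tested (Cd4, at 2.33 to 9.08 CPM), and their sum was 3.07 to 10.04 CPM; the defining marker Cd3e was at most at 0.210 CPM in any library. The 8 neutrophil markers, 6 of them tested, summed to 80.5 to 99.6 CPM in PBS_NO, 42.5 to 75.6 in 1xLPS_NO and 72.4 to 110 in 4xLPS_NO. With LPS in culture they summed to 100 to 127 CPM in PBS_LPS, 51.2 to 67.9 in 1xLPS_LPS and 57.2 to 147 in 4xLPS_LPS. S100a9 (18.3 to 83.1 CPM), Ngp (13.7 to 45.0) and S100a8 (4.84 to 18.5) stood highest among them. The defining marker Ly6g was at most at 0.0404 CPM, and the part of this sum in the results was not tested. The 4 endothelial markers, 3 of them tested, summed to 15.4 to 21.4 CPM in the unstimulated libraries and 3.95 to 9.38 CPM in the stimulated ones, and their part in the results on LPS in culture was not tested. The 7 stromal markers, led by Col1a1 and Col1a2, summed to 1109 to 1276 CPM in PBS_NO, 1557 to 2682 in 1xLPS_NO and 2190 to 2468 in 4xLPS_NO. The marker Lum was at 1.08 CPM or less in every library. In the stimulated groups the sums were 1911 to 2155 CPM in PBS_LPS, 2173 to 4332 in 1xLPS_LPS and 3290 to 3408 in 4xLPS_LPS. A pair of libraries, 1xLPS_NO library 1 and 1xLPS_LPS library 3, lay apart from the rest on the second principal component of all tested genes. In bulk RNA, fewer cells of a type and less RNA per cell cannot be told apart.

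Per kilobase of exon, the receptors for TNF and lymphotoxin stood highest in resting macrophages. In PBS_NO, Tnfrsf1b was at 265 ± 23.6 CPM per kilobase (SD, n = 3), followed by Tnfrsf1a at 82.9 ± 5.17 and by Ltbr, the lymphotoxin beta receptor, at 60.4 ± 6.20. The TWEAK ligand Tnfsf12 at 32.3 ± 6.99 and its receptor Fn14, Tnfrsf12a, at 29.9 ± 5.29 came next, and their ranges overlapped. The lowest tested members were Ltb at 0.138 CPM per kilobase, Tnfsf15 at 0.0549 and Tnfsf4 at 0.0312. Of the 25 pairs of neighbours in this order, 13 overlapped in range over the 3 libraries. In PBS_LPS, Tnfrsf1b reached 968 ± 102 CPM per kilobase, and Tnfsf9 had moved from the 13th place to the 2nd, at 125 ± 38.9. Tnfsf9 overlapped in range there with Tnfrsf1a, the 3rd in order at 110 ± 2.28.

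**Figure D1:**
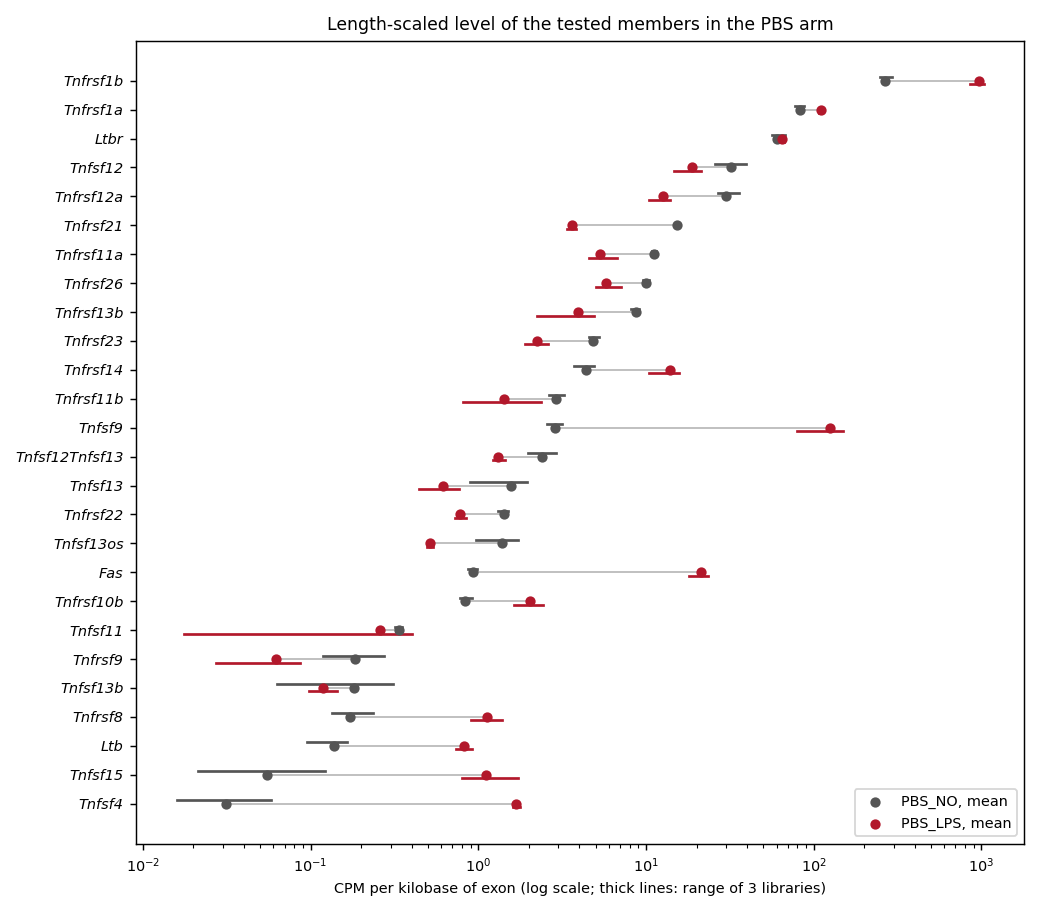
Level of the 26 tested members in the PBS arm, in CPM per kilobase of exon on a log axis, in unstimulated (grey) and LPS-stimulated (red) macrophages; points are means and thick lines the range of 3 libraries. Tnfrsf1b stands highest in both groups, and Tnfsf9, Fas, Tnfsf4 and Tnfsf15 lie farthest to the right of their unstimulated levels.

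Stimulation with LPS in culture was compared with no stimulation within each arm. Each log2 fold change is given with its SE, from 3 libraries a group, and adjusted p-values cover all tested genes. In the PBS arm 9 of the 26 tested members rose and 10 fell (adjusted p under 0.05, edgeR's quasi-likelihood test), against 25.3% of all tested genes called, 14.0% up and 11.3% down. In the 1xLPS arm 8 rose and 6 fell, beside 22.8% of all genes called, 12.0% up and 10.8% down. In the 4xLPS arm 8 rose and 6 fell, beside 18.9% of all genes called, 10.6% up and 8.29% down. The median log2 fold change of the tested members was -0.68, -0.27 and -0.59 in the PBS, 1xLPS and 4xLPS arms, beside -0.02, 0.00 and 0.05 for all genes. The filter admits a gene through the group in which it is high, so these counts describe the tested members and not all 38. Tnfsf4, Tnfsf15 and Ltb reached 1 CPM only in stimulated libraries, and Tnfsf13os only in unstimulated ones. These members were tested because they were high on that side, so their place in the counts is no independent support. Fas, Ltb, Tnfrsf10b, Tnfrsf1b, Tnfsf15, Tnfsf4 and Tnfsf9 rose in all 3 arms, and Tnfrsf11a, Tnfrsf13b, Tnfrsf21, Tnfrsf23 and Tnfsf13os fell in all 3. The share of all genes called in all 3 arms was not counted. No member rose in one arm and fell in another. With the 2 libraries that lay apart left out, 10 members rose and 12 fell in the PBS arm (19.6% of all genes up and 16.4% down in that fit), 7 rose and 4 fell in the 1xLPS arm (13.6% and 13.3%), and 8 rose and 8 fell in the 4xLPS arm (14.0% and 14.7%).

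**Figure D2:**
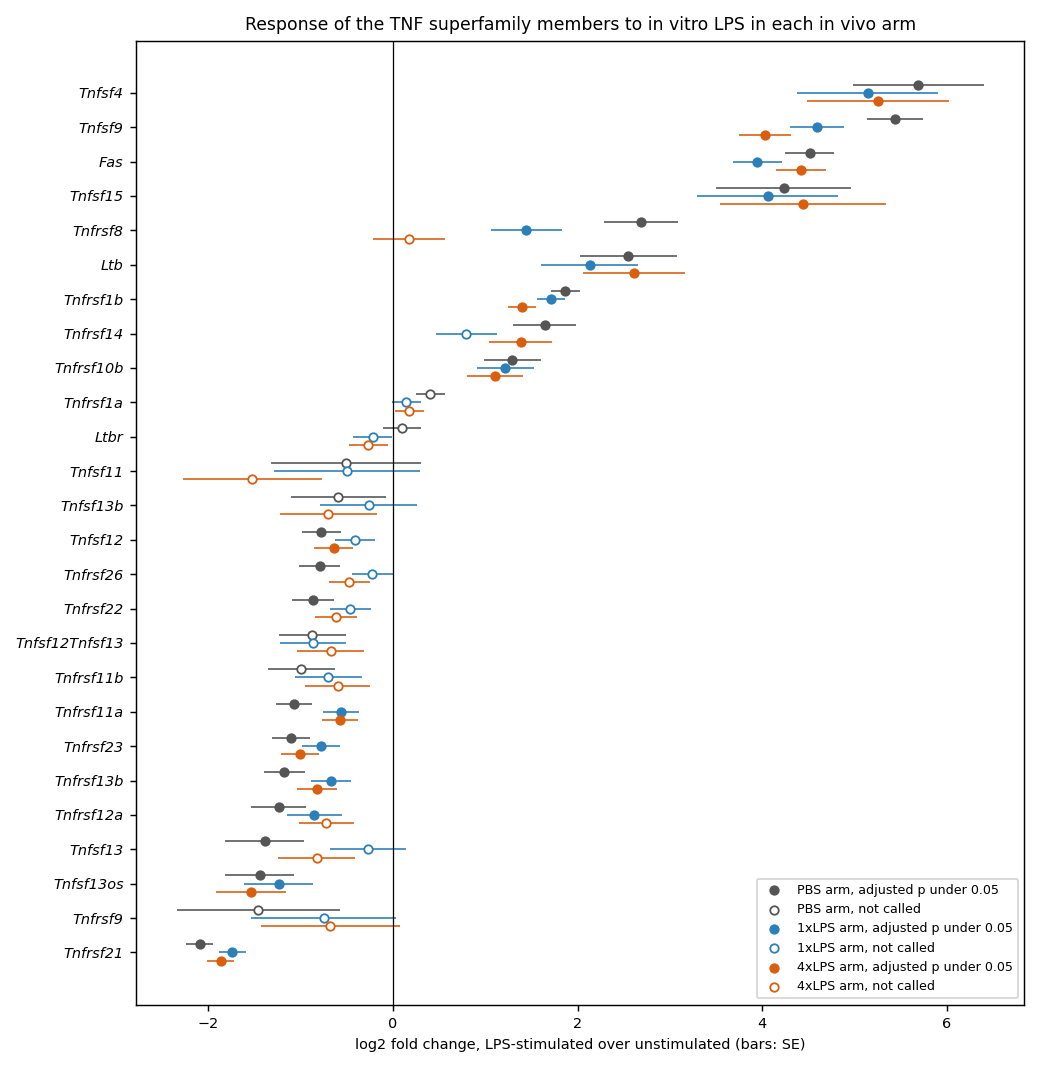
Log2 fold change of LPS-stimulated over unstimulated macrophages for the 26 tested members in the PBS (grey), 1xLPS (blue) and 4xLPS (orange) arms; bars are SE, filled points passed the adjusted p threshold of 0.05 and open points did not. Members are ordered by their value in the PBS arm, from Tnfsf4 at 5.69 to Tnfrsf21 at -2.09, and the values of Tnfrsf8 run from 2.69 to 0.18 across the arms.

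The ligands Tnfsf9, Tnfsf4, Tnfsf15 and Ltb rose in every arm. Of these, only Tnfsf9 reached 1 CPM in any unstimulated library. Tnfsf9 and Tnfsf4 are costimulators of T cells. Tnfsf9 (4-1BBL, ligand of Tnfrsf9) was at 3.74, 3.32 and 4.05 CPM in PBS_NO, at 7.72, 3.50 and 4.42 in 1xLPS_NO and at 5.06, 5.99 and 5.04 in 4xLPS_NO. After LPS it was at 188, 192 and 103 CPM in PBS_LPS, at 131, 146 and 101 in 1xLPS_LPS and at 96.3, 81.3 and 87.0 in 4xLPS_LPS. Every stimulated library lay above every unstimulated one, and the 4xLPS_LPS libraries all lay below the PBS_LPS libraries. The log2 fold change was 5.44 ± 0.30 (adjusted p = 2.45e-10) in the PBS arm, 4.59 ± 0.29 (adjusted p = 2.45e-09) in the 1xLPS arm and 4.04 ± 0.28 (adjusted p = 8.54e-09) in the 4xLPS arm. Tnfsf9 (chr17:57105325-57107757, plus strand) shares 192 exonic bases with Gm11110 on the other strand, and the strand setting of the counting is not given in the sources used here.

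Tnfsf4 (OX40L, ligand of Tnfrsf4; chr1:161395409-161418410, plus strand) had 5, 4 and 3 reads in all over the unstimulated PBS, 1xLPS and 4xLPS groups. After LPS its reads summed to 268, 165 and 218, at 2.96, 3.24 and 3.12 CPM in PBS_LPS, at 2.61, 1.94 and 0.585 in 1xLPS_LPS and at 1.02, 1.81 and 3.01 in 4xLPS_LPS. No unstimulated library exceeded 0.107 CPM, and the lowest stimulated one, 1xLPS_LPS library 3, was at 0.585 CPM. Scaled to depth, the stimulated to unstimulated ratio of counts was 56.3 (95% interval 23.8 to 175) in the PBS arm, 41.3 (15.8 to 153) in the 1xLPS arm and 46.5 (15.7 to 227) in the 4xLPS arm. These exact intervals cover counting error only. The fitted log2 fold changes were 5.69 ± 0.71 (adjusted p = 7.38e-06), 5.14 ± 0.76 (adjusted p = 6.65e-05) and 5.26 ± 0.77 (adjusted p = 6.04e-05) in the same order.

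Tnfsf15 (TL1A, the ligand of DR3) rose from 0.409, 0.0714 and 0.0717 CPM in PBS_NO to 5.78, 2.68 and 2.73 in PBS_LPS. In the 1xLPS arm it went from 0, 0.281 and 0 CPM to 2.45, 2.76 and 2.05, and in the 4xLPS arm from 0.0569, 0.0809 and 0.0480 to 1.45, 2.11 and 0.872. The stimulated and unstimulated libraries did not overlap in any arm, and PBS_NO library 1 and 1xLPS_NO library 2 were the highest of the unstimulated ones. Its log2 fold changes were 4.23 ± 0.74 (adjusted p = 0.000269), 4.06 ± 0.76 (adjusted p = 0.000729) and 4.44 ± 0.90 (adjusted p = 0.00143). Since 1xLPS_NO libraries 1 and 3 held no read, the value fitted without 1xLPS_NO library 2, 9.06, has no usable size.

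Ltb (lymphotoxin beta, which anchors lymphotoxin heterotrimers to the membrane; chr17:35194439-35196320) stayed low and rose in every arm. It was at 0.233, 0.250 and 0.143 CPM in PBS_NO and 1.11, 1.22 and 1.39 in PBS_LPS, a log2 fold change of 2.55 ± 0.53 (adjusted p = 0.00128). In the 1xLPS arm it went from 0.295, 0.264 and 0.210 to 1.14, 0.675 and 1.72 CPM (log2 fold change 2.13 ± 0.52, adjusted p = 0.00634), and in the 4xLPS arm from 0.341, 0.0809 and 0.192 to 0.681, 1.74 and 1.25 CPM (log2 fold change 2.62 ± 0.55, adjusted p = 0.00212). With only the compared groups fitted, its 1xLPS call was lost (adjusted p = 0.0839). Its partner Lta stood just under the filter and is described with the low members.

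The death receptors Fas and Tnfrsf10b rose in all arms. Fas (chr19:34290666-34327772, plus strand), the receptor of Fas ligand, was at 2.01, 1.79 and 1.97 CPM in PBS_NO, at 1.48, 3.08 and 2.21 in 1xLPS_NO and at 2.45, 1.09 and 1.87 in 4xLPS_NO. With LPS it was at 48.1, 37.0 and 47.2 CPM in PBS_LPS, at 34.5, 41.2 and 31.5 in 1xLPS_LPS and at 37.8, 40.9 and 35.4 in 4xLPS_LPS. The lowest stimulated library was at 31.5 CPM and the highest unstimulated one at 3.08, and the 3 stimulated groups overlapped. Its log2 fold changes were 4.51 ± 0.27 (adjusted p = 6.21e-10), 3.95 ± 0.27 (adjusted p = 5.1e-09) and 4.42 ± 0.27 (adjusted p = 2.61e-09) in the PBS, 1xLPS and 4xLPS arms. Tnfrsf10b (DR5, the mouse death receptor of TRAIL) rose as well, from 4.23, 4.43 and 4.98 to 8.89, 11.2 and 13.2 CPM in the PBS arm (log2 fold change 1.30 ± 0.30, adjusted p = 0.00382). In the 1xLPS arm it went from 4.80, 5.116 and 1.89 to 13.3, 9.29 and 6.04 CPM (log2 fold change 1.22 ± 0.31, adjusted p = 0.00756), with library 3 low in both groups. In the 4xLPS arm it went from 5.40, 7.04 and 7.40 to 12.3, 15.7 and 14.7 CPM (log2 fold change 1.10 ± 0.30, adjusted p = 0.0143). The call of Tnfrsf10b was lost without 1xLPS_LPS library 1 or with only the compared groups fitted in the 1xLPS arm (adjusted p = 0.0541 and 0.128), and without 4xLPS_NO library 1 (0.0712) or 4xLPS_LPS library 2 (0.0610) in the 4xLPS arm.

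Of the receptors for TNF, TNFR2 rose in every arm. Tnfrsf1b (TNFR2, which lacks a death domain; chr4:145213463-145246870, minus strand) was at 1114, 949 and 969 CPM in PBS_NO, at 1146, 935 and 1130.2 in 1xLPS_NO and at 984, 972 and 979 in 4xLPS_NO. Stimulated libraries were at 3878, 3958 and 3250.1 CPM in PBS_LPS, at 3056, 4052 and 3449 in 1xLPS_LPS and at 2517, 2646 and 2561 in 4xLPS_LPS. All 3 4xLPS_LPS libraries lay below all libraries of both other stimulated groups. Its log2 fold changes were 1.87 ± 0.15 (adjusted p = 3.82e-08), 1.72 ± 0.15 (adjusted p = 1.54e-07) and 1.40 ± 0.15 (adjusted p = 1.97e-06). Tnfrsf1a (TNFR1, with a death domain) was at 227, 201 and 216 CPM in PBS_NO and 279, 283 and 291 in PBS_LPS, a log2 difference of 0.40 ± 0.16 (adjusted p = 0.0683) that did not pass in the main test. It passed with DESeq2 (adjusted p = 0.0407) and in edgeR with only the compared groups fitted (0.0233). It also passed in edgeR with 1xLPS_NO library 1 and 1xLPS_LPS library 3 left out (0.0201). The other arms gave 0.15 ± 0.16 (adjusted p = 0.536) and 0.18 ± 0.16 (adjusted p = 0.475) for Tnfrsf1a. Per kilobase of exon, Tnfrsf1b stood at 3.19 ± 0.143 times Tnfrsf1a in PBS_NO, 2.90 ± 0.307 in 1xLPS_NO and 3.06 ± 0.353 in 4xLPS_NO (SD, n = 3). The ratio was 8.83 ± 1.08 in PBS_LPS, 8.53 ± 1.02 in 1xLPS_LPS and 7.07 ± 0.464 in 4xLPS_LPS. Among the summed length-scaled levels of all tested members, Tnfrsf1b made up 44.5% to 50.7% in the unstimulated libraries and 66.6% to 72.8% in the stimulated ones.

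CD30 and HVEM rose in some arms. Tnfrsf8 (CD30, a receptor of activated lymphocytes; chr4:145267137-145315164, minus strand) went from 0.817, 0.464 and 0.502 CPM in PBS_NO to 3.11, 3.71 and 4.78 in PBS_LPS (log2 fold change 2.69 ± 0.40, adjusted p = 5.22e-05). In the 1xLPS arm it went from 0.701, 1.32 and 0.631 to 2.09, 2.31 and 3.22 CPM (log2 fold change 1.45 ± 0.39, adjusted p = 0.0113). In the 4xLPS arm it was at 1.42, 1.01 and 0.624 CPM without and 1.06, 1.29 and 1.08 with LPS (log2 fold change 0.18 ± 0.39, adjusted p = 0.796). The stimulated libraries lay above the unstimulated ones in the PBS and 1xLPS arms and overlapped with them in the 4xLPS arm. The call in the 1xLPS arm was lost with 1xLPS_NO library 1 and 1xLPS_LPS library 3 both left out (adjusted p = 0.0926) or with only the compared groups fitted (0.128). Tnfrsf14 (HVEM, the receptor of LIGHT) rose in the PBS arm from 6.60, 5.36 and 7.06 to 22.2, 22.5 and 15.0 CPM (log2 fold change 1.64 ± 0.34, adjusted p = 0.00128) and in the 4xLPS arm from 5.75, 7.60 and 5.24 to 17.1, 18.2 and 13.4 CPM (log2 fold change 1.38 ± 0.34, adjusted p = 0.00684). After 1xLPS it was at 5.09, 13.3 and 15.8 CPM without and 19.3, 27.0 and 12.4 with LPS, with overlap, and did not pass (log2 fold change 0.80 ± 0.33, adjusted p = 0.0938). It passed there without 1xLPS_LPS library 3 (adjusted p = 0.0293) and in edgeR with no filter on low counts (0.0101).

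**Figure D3:**
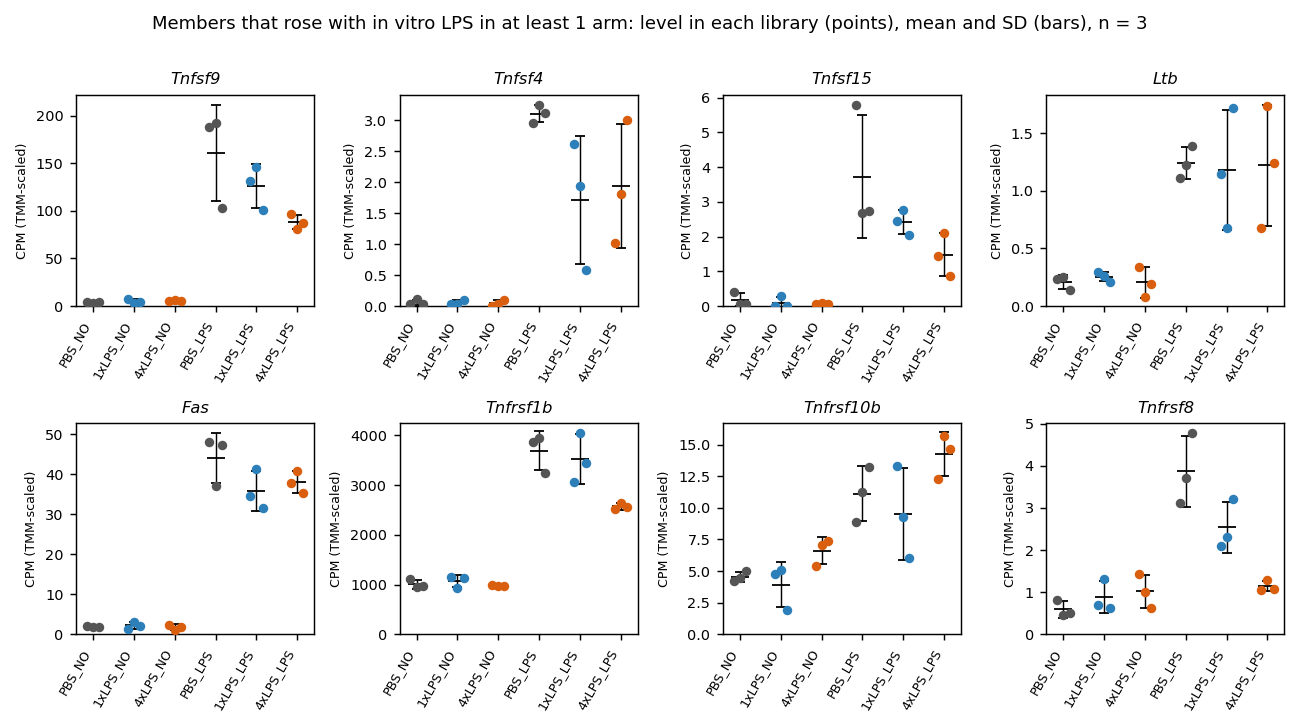
Level in CPM (TMM-scaled, linear axis from 0) of 8 members that rose with LPS in culture, in each of 18 libraries; points are libraries and bars the mean and SD of 3. Within each arm the stimulated libraries lie above the unstimulated ones, except for Tnfrsf8 in 4xLPS_LPS, at 1.06 to 1.29 CPM beside 0.624 to 1.42 in 4xLPS_NO.

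Promoter sequences of members that moved together were read from RefSeq (GRCm38.p6), as the 250 bases before the RefSeq start. Bases that the GENCODE annotation places in an exon were left out, 68 for Ltb and 54 for Tnfsf15, so these 2 sequences end before that start. They are shown for Fas and Tnfsf15, which rose in all arms, and for Tnfrsf21, which fell in all arms. Ltb, Tnfrsf8 and Tnfrsf1b were added as a choice among the members that hold a match, and all 3 rose in at least 1 arm. The shown sequences therefore do not tell whether matches go with rising members. Tnfsf4, Tnfsf9 and Tnfsf13os would have come under the same choice and are named only. Capitals mark matches on either strand to the NF-kappaB consensus, to the AP-1 site TGANTCA or to the interferon-response repeat, a pair of GAAA words set 2 bases apart.
Fas, chr19:34290409-34290658, plus strand: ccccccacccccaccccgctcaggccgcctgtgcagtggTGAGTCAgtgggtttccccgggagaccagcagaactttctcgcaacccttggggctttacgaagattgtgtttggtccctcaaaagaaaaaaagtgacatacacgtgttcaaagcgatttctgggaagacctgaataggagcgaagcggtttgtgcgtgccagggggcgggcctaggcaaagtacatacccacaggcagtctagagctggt
Tnfsf15, chr4:63745114-63745309, minus strand: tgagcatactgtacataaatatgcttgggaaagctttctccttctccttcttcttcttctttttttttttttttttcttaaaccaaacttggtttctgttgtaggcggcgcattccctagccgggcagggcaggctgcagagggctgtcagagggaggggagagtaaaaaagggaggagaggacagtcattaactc
Tnfrsf21, chr17:43016305-43016554, plus strand: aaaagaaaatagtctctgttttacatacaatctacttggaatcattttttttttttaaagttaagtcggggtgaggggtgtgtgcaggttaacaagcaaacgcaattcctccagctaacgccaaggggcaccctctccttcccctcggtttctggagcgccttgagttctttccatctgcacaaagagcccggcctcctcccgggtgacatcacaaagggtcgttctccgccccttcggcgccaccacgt
Ltb, chr17:35194257-35194438, plus strand: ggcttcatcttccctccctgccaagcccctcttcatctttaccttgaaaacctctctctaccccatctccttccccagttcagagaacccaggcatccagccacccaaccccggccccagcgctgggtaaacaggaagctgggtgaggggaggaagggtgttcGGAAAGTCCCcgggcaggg
Tnfrsf8, chr4:145315165-145315414, minus strand: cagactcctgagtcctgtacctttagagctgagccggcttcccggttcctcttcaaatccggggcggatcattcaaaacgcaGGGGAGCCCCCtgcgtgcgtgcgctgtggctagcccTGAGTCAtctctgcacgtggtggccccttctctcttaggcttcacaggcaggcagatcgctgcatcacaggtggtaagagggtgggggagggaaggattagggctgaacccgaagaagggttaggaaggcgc
Tnfrsf1b, chr4:145246871-145247120, minus strand: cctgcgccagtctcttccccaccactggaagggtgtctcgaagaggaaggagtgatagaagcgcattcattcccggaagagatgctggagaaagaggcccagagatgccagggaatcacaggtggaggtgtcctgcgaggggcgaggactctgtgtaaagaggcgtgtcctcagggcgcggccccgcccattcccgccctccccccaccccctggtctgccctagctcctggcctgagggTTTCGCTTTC
Counted from the RefSeq start, Fas holds an AP-1 match at bases -211 to -205, Ltb an NF-kappaB match at -87 to -78 and Tnfrsf1b an interferon-response match at -10 to -1. The Ltb match lies nearer to the GENCODE start, where its shown sequence ends. Tnfrsf8 holds 2 overlapping NF-kappaB matches at -168 to -158 and an AP-1 match at -132 to -126. Tnfsf15 and Tnfrsf21 hold none of these letters in this window. Of the 18 tested members with an entry, 3 held the NF-kappaB consensus (Ltb, Tnfrsf8 and Tnfrsf9). The AP-1 site was held by 5 (Fas, Tnfrsf8, Tnfrsf9, Tnfsf13 and Tnfsf13b) and the interferon-response repeat by 3 (Tnfrsf14, Tnfrsf1b and Tnfsf13b). Among those not shown, Tnfrsf14 rose in the PBS and 4xLPS arms and Tnfsf13 fell in the PBS arm. Tnfrsf9 and Tnfsf13b passed in no arm. Over the promoters of all 27025 genes in the RefSeq table the shares were 8.23%, 7.82% and 3.46%. A match is a description of the letters and not evidence that a factor binds.

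Among the members that fell in all arms, Tnfrsf21 (DR6, a receptor with a death domain; chr17:43016555-43089189) had the lowest log2 fold change in each arm. It was at 64.1, 63.0 and 62.2 CPM in PBS_NO, at 51.1, 53.7 and 54.5 in 1xLPS_NO and at 48.9, 69.1 and 61.4 in 4xLPS_NO. With LPS it was at 14.7, 15.8 and 14.0 CPM in PBS_LPS, at 14.6, 17.1 and 15.9 in 1xLPS_LPS and at 18.8, 15.9 and 14.5 in 4xLPS_LPS. No stimulated library exceeded 18.8 CPM, and no unstimulated one was under 48.9. Its log2 fold changes were -2.09 ± 0.15 (adjusted p = 5.33e-09), -1.74 ± 0.14 (adjusted p = 7.18e-08) and -1.87 ± 0.15 (adjusted p = 3.49e-08).

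RANK and TACI also fell in all arms. Tnfrsf11a (RANK, the receptor of RANKL) went from 69.1, 66.1 and 64.7 CPM in PBS_NO to 39.9, 27.3 and 28.2 in PBS_LPS (log2 fold change -1.07 ± 0.20, adjusted p = 0.000458). It went from 37.3, 58.6 and 46.5 to 33.1, 36.2 and 27.3 CPM in the 1xLPS arm (log2 fold change -0.56 ± 0.20, adjusted p = 0.0466) and from 55.6, 59.3 and 65.3 to 51.6, 34.2 and 35.1 CPM in the 4xLPS arm (log2 fold change -0.58 ± 0.20, adjusted p = 0.0464). The groups did not overlap in any arm, and 4xLPS_LPS library 1 was the highest stimulated one. The 1xLPS call of Tnfrsf11a ended when 1xLPS_NO library 2 (adjusted p = 0.163) or 3 (0.0874), or 1xLPS_LPS library 1 (0.0888), 2 (0.0578) or 3 (0.108), was left out, with only the compared groups fitted (0.176) and with no filter on low counts (0.136). The 4xLPS call ended without 4xLPS_NO library 1 (0.0701), 2 (0.0919) or 3 (0.146), without 4xLPS_LPS library 2 (0.178) or 3 (0.175), with no filter (0.0609) and with no TMM scaling (0.0950). Tnfrsf13b (TACI, which binds BAFF and APRIL) went from 23.1, 25.5 and 25.9 to 13.0, 13.9 and 6.35 CPM in the PBS arm (log2 fold change -1.18 ± 0.22, adjusted p = 0.000594), where library 3 of PBS_LPS was the lowest. The other arms went from 16.1, 22.9 and 22.4 to 12.2, 13.7 and 12.6 CPM (log2 fold change -0.67 ± 0.22, adjusted p = 0.0344) and from 20.8, 21.0 and 22.6 to 12.4, 11.6 and 12.4 CPM (log2 fold change -0.82 ± 0.22, adjusted p = 0.0124). No stimulated library of Tnfrsf13b reached an unstimulated one. Its 1xLPS call ended when 1xLPS_NO library 2 (adjusted p = 0.0814) or 3 (0.102), or 1xLPS_LPS library 1 (0.0964), 2 (0.0660) or 3 (0.0557), was left out, with only the compared groups fitted (0.119) and with no filter (0.107).

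The decoy TRAIL receptors and their neighbour are mouse genes in 1 cluster on chromosome 7. Tnfrsf23 (chr7:143665809-143685872) fell in all arms, from 18.5, 18.0 and 20.8 to 8.67, 7.52 and 10.3 CPM in the PBS arm (log2 fold change -1.11 ± 0.21, adjusted p = 0.000592). It went from 22.2, 15.8 and 16.8 to 10.9, 7.96 and 13.0 CPM in the 1xLPS arm (log2 fold change -0.78 ± 0.21, adjusted p = 0.0104) and from 23.6, 24.7 and 25.1 to 9.37, 15.0 and 12.2 CPM in the 4xLPS arm (log2 fold change -1.002 ± 0.207, adjusted p = 0.00174). The call in the 1xLPS arm was lost without 1xLPS_LPS library 2 (adjusted p = 0.0660) or with only the compared groups fitted (0.110). Tnfrsf22 (chr7:143634806-143649661) fell in the PBS arm, from 5.54, 6.11 and 6.38 to 3.56, 3.05 and 3.27 CPM (log2 fold change -0.87 ± 0.23, adjusted p = 0.00832), a call lost with no filter on low counts (0.0802). It did not pass in the 1xLPS arm (log2 fold change -0.46 ± 0.22, adjusted p = 0.15), where it passed without 1xLPS_LPS library 1 (0.0189), nor in the 4xLPS arm (log2 fold change -0.62 ± 0.22, adjusted p = 0.0619), where it passed with DESeq2 (0.0124). In edgeR it also passed there with RLE size factors in place of TMM (0.0366) and with only the compared groups fitted (0.0107). The same held with 1xLPS_NO library 1 and 1xLPS_LPS library 3 left out (0.0217). These decoys share 27.4% (Tnfrsf22) and 19.3% (Tnfrsf23) of their 50-base words with other genes, so the split of reads between them is uncertain. Tnfrsf26 (chr7:143607659-143628722), a mouse relative of the TNF receptors that like Tnfrsf23 shares exonic bases with E230032D23Rik on the other strand, fell in the PBS arm from 30.7, 33.4 and 32.9 to 16.2, 16.6 and 22.9 CPM (log2 fold change -0.79 ± 0.22, adjusted p = 0.0138). That call was lost without PBS_LPS library 1 (0.0582) or 2 (0.0622), and the other arms did not pass (log2 fold change -0.22 ± 0.22, adjusted p = 0.507 and -0.47 ± 0.22, adjusted p = 0.156).

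In the main test Fn14 fell in the PBS and 1xLPS arms, and its ligand TWEAK in the PBS and 4xLPS arms. Tnfrsf12a (Fn14; chr17:23675445-23677468) went from 51.9, 69.5 and 51.6 CPM in PBS_NO to 20.01, 26.3 and 26.8 in PBS_LPS (log2 fold change -1.24 ± 0.30, adjusted p = 0.00488). In 1xLPS_NO it was at 102, 33.9 and 48.1 CPM and in 1xLPS_LPS at 45.4, 28.0 and 28.7, with overlap (log2 fold change -0.85 ± 0.30, adjusted p = 0.0466). The log2 fold change in the 1xLPS arm was -0.26 without 1xLPS_NO library 1 (adjusted p = 0.442) and -0.16 with 1xLPS_LPS library 3 also left out (0.652), and the call was also lost without 1xLPS_LPS library 2 (0.165) or 3 (0.0993), with only the compared groups fitted (0.201) and with the replicate block (0.0605). In the 4xLPS arm Tnfrsf12a was at 61.8, 71.1 and 73.1 CPM without and 36.1, 39.1 and 49.6 with LPS, with no overlap, and did not pass in the main test (log2 fold change -0.72 ± 0.30, adjusted p = 0.103). It passed there in edgeR with no filter on low counts (adjusted p = 0.00975) and with only the compared groups fitted (0.0015). It also passed with 1xLPS_NO library 1 and 1xLPS_LPS library 3 left out (0.00576). Tnfsf12 (TWEAK) fell in the PBS arm, from 47.7, 39.0 and 60.1 to 32.4, 22.4 and 31.1 CPM (log2 fold change -0.77 ± 0.21, adjusted p = 0.0116), and in the 4xLPS arm, from 41.6, 43.7 and 45.7 to 29.1, 24.8 and 30.1 CPM (log2 fold change -0.64 ± 0.21, adjusted p = 0.0419). The PBS call was lost without PBS_NO library 3 (0.0705) or PBS_LPS library 2 (0.0692). Leaving out 4xLPS_NO library 1 (0.0758), 2 (0.0901) or 3 (0.113), or 4xLPS_LPS library 1 (0.0879), 2 (0.137) or 3 (0.0733), ended the 4xLPS call. The 1xLPS arm gave -0.41 ± 0.21 (adjusted p = 0.175) for Tnfsf12, and it passed there without 1xLPS_LPS library 3 (0.0163) or with no TMM scaling (0.0375).

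**Figure D4:**
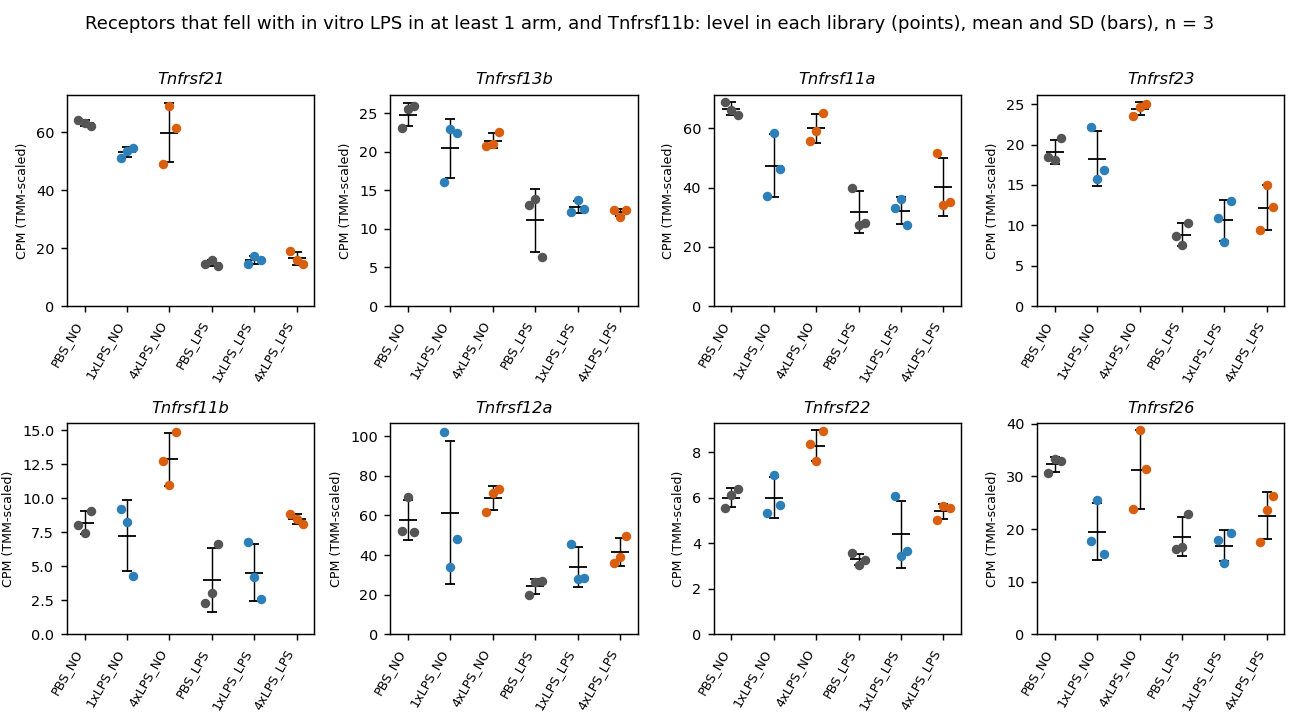
Level in CPM (TMM-scaled, linear axis from 0) of 7 receptors that fell with LPS in culture in at least 1 arm, and of Tnfrsf11b, in each of 18 libraries; points are libraries and bars the mean and SD of 3. Tnfrsf21 separates unstimulated from stimulated libraries in every arm, and the 4xLPS_LPS libraries of Tnfrsf11b and Tnfrsf22 lie above the PBS_LPS ones without passing the test.

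The locus of the B cell ligand APRIL on chromosome 11 holds 4 overlapping members: Tnfsf12 (chr11:69686250-69695849), Tnfsf13 (APRIL; chr11:69682846-69685784), the read-through Tnfsf12Tnfsf13 and Tnfsf13os on the other strand. Shared exons and 50-base words (12.2% to 71.0% of each gene's) make the split of reads among them uncertain. Tnfsf13os was at 1.66, 1.07 and 1.90 CPM in PBS_NO and 0.593, 0.564 and 0.549 in PBS_LPS, and fell in the PBS (log2 fold change -1.44 ± 0.38, adjusted p = 0.00798), 1xLPS (log2 fold change -1.24 ± 0.37, adjusted p = 0.0233) and 4xLPS (log2 fold change -1.54 ± 0.38, adjusted p = 0.0068) arms. The 1xLPS call of Tnfsf13os was lost without 1xLPS_NO library 1 (0.0561) or 1xLPS_LPS library 1 (0.0518) or 2 (0.0518), and with both libraries that lay apart left out (0.0993) or only the compared groups fitted (0.208). With no filter on low counts the call of Tnfsf13os was lost in the PBS (0.116), 1xLPS (0.255) and 4xLPS (0.0932) arms. Tnfsf13 fell in the PBS arm, from 3.18, 1.46 and 3.05 to 1.26, 1.03 and 0.725 CPM (log2 fold change -1.39 ± 0.43, adjusted p = 0.023). That call was lost without PBS_NO library 1 (0.0893) or 3 (0.0735) or PBS_LPS library 2 (0.0583) or 3 (0.0902), and the other arms did not pass (log2 fold change -0.27 ± 0.41, adjusted p = 0.677 and -0.83 ± 0.42, adjusted p = 0.189). With only the compared groups fitted, Tnfsf13 passed in the 4xLPS arm (0.0441). Tnfsf12Tnfsf13 passed in no arm, with -0.87 ± 0.36 (adjusted p = 0.087), -0.86 ± 0.36 (adjusted p = 0.0918) and -0.67 ± 0.36 (adjusted p = 0.218). In alternative edgeR fits it passed in the PBS arm with no TMM scaling (0.0234), with only the compared groups (0.0223) and with both libraries that lay apart left out (0.0435). It passed in the 1xLPS arm without 1xLPS_NO library 2 (0.00508) or 1xLPS_LPS library 3 (0.0348) and with no TMM scaling (0.0423). In the 4xLPS arm it passed with only the compared groups (0.0444).

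The remaining tested members passed in no arm in the main test. Tnfrsf11b (osteoprotegerin, the soluble decoy of RANKL) was at 8.05, 7.46 and 9.10 CPM in PBS_NO and 2.30, 3.05 and 6.65 in PBS_LPS. Its log2 difference was -0.99 ± 0.36 (adjusted p = 0.0527) in the PBS arm, -1.63 without PBS_LPS library 3 (adjusted p = 0.0039), and -0.70 ± 0.36 (adjusted p = 0.174) and -0.60 ± 0.35 (adjusted p = 0.269) in the other arms. In the PBS arm Tnfrsf11b passed in 7 of 14 alternatives, among them DESeq2 (0.0257) and edgeR with no filter (0.0169) or no TMM scaling (0.0323). The highest adjusted p of the 14 was 0.179. In the 4xLPS arm it passed with only the compared groups fitted (0.00981). Tnfsf11 (RANKL) lay between 0.0392 and 3.17 CPM over all libraries, Tnfsf13b (BAFF, a B cell survival ligand) between 0.394 and 2.13 and Tnfrsf9 (4-1BB) between 0 and 1.21. In the PBS, 1xLPS and 4xLPS arms the log2 fold changes of Tnfsf11 were -0.51 ± 0.81, -0.50 ± 0.79 and -1.52 ± 0.75. Those of Tnfsf13b were -0.59 ± 0.51, -0.26 ± 0.53 and -0.70 ± 0.52, and those of Tnfrsf9 -1.46 ± 0.88, -0.75 ± 0.79 and -0.68 ± 0.76. With only the compared groups fitted, Tnfsf11 passed in the 4xLPS arm (adjusted p = 0.0393). Ltbr was at 159, 134 and 133 CPM in PBS_NO and 149, 151 and 156 in PBS_LPS (log2 fold change 0.10 ± 0.21, adjusted p = 0.773), with -0.22 ± 0.21 (adjusted p = 0.487) and -0.27 ± 0.21 (adjusted p = 0.416) in the other arms. In the 4xLPS arm Ltbr passed with only the compared groups fitted (0.0487). The threshold of the filter passes between Tnfrsf9 (3 libraries at 1 CPM or more), Tnfsf11 (4) and Ltb (6) on the inside and Tnfsf10 (TRAIL, 2), Lta (1) and Tnfrsf4 (OX40, 1) on the outside.

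Of the 12 members under the filter, the highest unscaled levels in any library were 1.11 CPM for Tnfsf10, 1.04 for Lta, 1.03 for Tnfrsf4, 0.884 for Tnfsf14 (LIGHT), 0.662 for Tnfsf18 (GITRL) and 0.637 for Tnfrsf19. Tnfsf8, Tnfrsf18, Tnfrsf25, Fasl, Tnfrsf13c and Tnfrsf17 stayed at 0.315, 0.311, 0.233, 0.215, 0.130 and 0.0900 CPM. Lta (lymphotoxin alpha, a secreted ligand of the TNF receptors) had 5, 4 and 1 reads in the unstimulated PBS, 1xLPS and 4xLPS groups and 75, 28 and 39 in the stimulated ones. With every gene that had a read tested, 36511 in all, Lta rose in the PBS arm (log2 fold change 3.67 ± 0.99, adjusted p = 0.00369) and the 4xLPS arm (4.20 ± 1.25, 0.0145) and did not pass in the 1xLPS arm (2.72 ± 1.05, 0.0993). Tnfsf18 had 2, 4 and 1 unstimulated reads and 27, 50 and 22 stimulated ones. In the same test Tnfsf18 passed in the PBS (0.0269) and 1xLPS (0.0123) arms and not in the 4xLPS arm (0.108). Tnfrsf4, Tnfrsf9 and Tnfrsf25, the receptors of Tnfsf4, Tnfsf9 and Tnfsf15, were each at 1.21 CPM or less in every library, while Ltbr, the receptor of Ltb, was at 112 to 256 CPM.

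The question of the in vivo arms is whether earlier LPS changed these genes in resting macrophages or their response in culture. In unstimulated macrophages no member was called between any pair of arms by edgeR, where 0% of all genes were called. At an unadjusted p under 0.05 there were 4 members for 1xLPS against PBS (11.8% of all genes), 0 for 4xLPS against PBS (6.00%) and 5 for 4xLPS against 1xLPS (9.55%). DESeq2 called no member in these 3 comparisons, beside 0.232%, 0.861% and 0.399% of the genes to which it gave an adjusted p, in the same order. Those genes numbered 12509, 12783 and 9765. The members with an unadjusted p under 0.05 for 1xLPS against PBS were Tnfrsf26 (log2 difference -0.72 ± 0.22, adjusted p = 0.356), Tnfrsf11a (log2 difference -0.49 ± 0.19, adjusted p = 0.375), Tnfrsf14 (log2 difference 0.83 ± 0.34, adjusted p = 0.378) and Ltbr (log2 difference 0.46 ± 0.21, adjusted p = 0.415). Without 1xLPS_NO library 2, edgeR called 3 members: Tnfrsf26 (adjusted p = 0.0217) and Tnfrsf11a (0.0436) as lower and Ltbr (0.0258) as higher in 1xLPS_NO than in PBS_NO, in a fit that called 5.55% of all genes lower and 5.70% higher. Without that library Tnfrsf26 was also called higher in 4xLPS_NO than in 1xLPS_NO (0.0419), as were 1.69% of all genes.

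The 1xLPS_NO and PBS_NO libraries did not overlap for 4 of the 26 members (15.4%, against 11.4% of all genes), and Tnfrsf11a, Tnfrsf13b, Tnfrsf21 and Tnfrsf26 were each lower in 1xLPS_NO (5.04% of all genes). In unstimulated macrophages the libraries of 4xLPS and PBS did not overlap for 8 of the 26 members (30.8%, against 18.9% of all genes). Tnfrsf10b, Tnfrsf11b, Tnfrsf22, Tnfrsf23, Tnfrsf9, Tnfsf11 and Tnfsf9 were higher in 4xLPS_NO (10.9% of all genes), and Tnfrsf13b was lower (8.01% of all genes). Tnfrsf9 and Tnfsf11 would not have passed the filter without their 4xLPS_NO libraries. They were thus tested because they were high in that group, and their place in this count is no evidence of a difference. Tnfsf11 was at 1.02, 2.43 and 3.17 CPM in 4xLPS_NO beside 0.788, 0.714 and 0.752 in PBS_NO, a log2 difference of 1.55 ± 0.76 (adjusted p = 0.857). Its decoy Tnfrsf11b was at 12.7, 11.0 and 14.8 CPM beside 8.05, 7.46 and 9.10 (log2 difference 0.65 ± 0.35, adjusted p = 0.972), and neither passed. The stromal marker sum did not overlap between these groups either (2190 to 2468 against 1109 to 1276 CPM). Among its markers, Dcn (36.6 to 56.2 against 35.8 to 40.9 CPM) and Lum (0.192 to 0.728 against 0.214 to 0.438) did overlap, and the others were higher in 4xLPS_NO. The part of this sum in these values was not tested.

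After LPS, no member passed between any pair of arms in edgeR. Of all genes 0.0777% were called in 4xLPS against PBS, 0.0636% higher and 0.0141% lower, and 0% in 1xLPS against PBS and in 4xLPS against 1xLPS. An unadjusted p under 0.05 was reached by 9 of 26 members for 4xLPS against PBS (13.9% of all genes), by 1 for 1xLPS against PBS (7.66%) and by 5 for 4xLPS against 1xLPS (5.99%). DESeq2 called 3 of the 26 members for 4xLPS against PBS, all lower in 4xLPS_LPS, where it called 2.30% of all genes, 1.32% as lower. It called no member for 1xLPS against PBS (0.0777% of all genes) or for 4xLPS against 1xLPS (0.00706%). The 3 members were Tnfrsf8 (log2 difference -1.82, adjusted p = 0.00102), Tnfrsf1b (-0.57, 0.0128) and Tnfsf9 (-0.92, 0.0379). In edgeR the same members gave -1.76 ± 0.38 (adjusted p = 0.111), -0.52 ± 0.15 (adjusted p = 0.158) and -0.87 ± 0.24 (adjusted p = 0.154). With the 2 libraries that lay apart left out, edgeR called Tnfrsf8 (0.0189), Tnfsf9 (0.0189) and Tnfrsf1b (0.0299) lower and Tnfrsf12a (0.0461) higher in 4xLPS_LPS, beside 2.43% of all genes called lower and 1.67% higher in that fit. Those libraries belong to the 1xLPS arm, so for this contrast their absence changed the scaling and the shared estimate of spread.

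The libraries of 4xLPS_LPS and PBS_LPS did not overlap for 10 of the 26 members (38.5%, against 28.8% of all genes). Lower in all 4xLPS_LPS libraries were 6 (14.1% of all genes): Ltbr, Tnfrsf1a, Tnfrsf1b, Tnfrsf8, Tnfsf15 and Tnfsf9. Higher in all of them were 4 (14.8% of all genes): Tnfrsf11b, Tnfrsf12a, Tnfrsf22 and Tnfrsf9. Tnfrsf11b was at 8.86, 8.50 and 8.14 CPM in 4xLPS_LPS beside 2.30, 3.05 and 6.65 in PBS_LPS (log2 difference 1.04 ± 0.36, adjusted p = 0.228). Tnfrsf12a gave 0.77 ± 0.30 (adjusted p = 0.268) and Tnfrsf22 0.72 ± 0.23 (adjusted p = 0.185). The stromal marker sum was 3290 to 3408 CPM in 4xLPS_LPS and 1911 to 2155 in PBS_LPS, and its part in these values was not tested. Col1a1, Col1a2, Col3a1, Pdgfra and Pdgfrb were each higher in 4xLPS_LPS without overlap. Dcn (43.9 to 61.9 against 37.2 to 57.8 CPM) and Lum (0.170 to 0.517 against 0.370 to 0.706) overlapped. Both had a lower median in 4xLPS_LPS, at 46.2 against 52.2 CPM for Dcn and 0.208 against 0.470 for Lum. For 1xLPS_LPS against PBS_LPS 2 members did not overlap (7.69%, against 12.0% of all genes), Tnfrsf12a higher (6.23% of all genes) and Tnfsf4 lower (5.82% of all genes).

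The difference between the LPS responses of the arms was tested directly as an interaction. No member was called for 1xLPS minus PBS or for 4xLPS minus PBS by edgeR or by DESeq2. EdgeR called 0% of all genes, and DESeq2 called 0.170% and 0.304% of those to which it gave an adjusted p. For 4xLPS minus PBS those were only 2630 of the 14158 tested genes. A member without an adjusted p could not be called by DESeq2, so its result there decides nothing for such a member. An unadjusted p under 0.05 was reached by 2 members for 1xLPS minus PBS (8.15% of all genes), Tnfrsf8 and Tnfsf9. For 4xLPS minus PBS it was reached by 3 (5.67% of all genes), Tnfrsf8, Tnfsf9 and Tnfrsf1b. The difference of log2 response for Tnfrsf8 was -2.52 ± 0.56 (adjusted p = 0.808) for 4xLPS minus PBS and -1.25 ± 0.54 (adjusted p = 0.582) for 1xLPS minus PBS. For Tnfsf9 it was -1.40 ± 0.37 (adjusted p = 0.808) and -0.84 ± 0.37 (adjusted p = 0.578), and for Tnfrsf1b -0.47 ± 0.21 (adjusted p = 0.808) and -0.15 ± 0.21 (adjusted p = 0.883). The arm by arm pattern of Tnfrsf8, called in the PBS and 1xLPS arms and not in the 4xLPS arm, was therefore not shown to differ between arms. For Fas the difference was -0.09 ± 0.36 (adjusted p = 0.96) and -0.56 ± 0.35 (adjusted p = 0.696), and for Tnfsf4 -0.43 ± 1.34 (adjusted p = 0.95) and -0.55 ± 1.30 (adjusted p = 0.94).

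Other genes of TNF receptor signalling were taken as a list of 53, of which 49 were tested; Cd70, Cd40lg, Edar and Cd27 were under the filter. With LPS in culture 27 rose and 2 fell in the PBS arm (14.0% of all genes up and 11.3% down), 23 rose and 2 fell in the 1xLPS arm (12.0% and 10.8%), and 22 rose and 3 fell in the 4xLPS arm (10.6% and 8.29%). Their median log2 fold change was 0.61, 0.42 and 0.42 in the same order, beside -0.02, 0.00 and 0.05 for all genes. Tnf rose by 7.36 ± 0.35 (adjusted p = 7.01e-11) on the log2 scale in the PBS arm, from 21.5, 23.6 and 21.6 to 4494, 4219 and 2238 CPM. In the 4xLPS arm it went from 20.7, 22.5 and 23.7 to 1422, 1604 and 1467 CPM (log2 fold change 6.07 ± 0.33, adjusted p = 5.04e-10). Cd40, a receptor of the same superfamily, rose by 6.10, 5.45 and 5.19 on the log2 scale in the PBS, 1xLPS and 4xLPS arms. The adaptor Traf1 rose by 5.58, 4.46 and 4.52, and the ubiquitin ligase Birc3 by 2.68, 2.44 and 2.57. The NF-kappaB inhibitor Nfkbia rose by 3.46, 2.27 and 2.63, and the subunits Nfkb2 (2.98, 2.20 and 2.35) and Relb (2.57, 1.94 and 2.01) rose beside it. Tnip1, a partner of the deubiquitinase A20, rose by 2.89, 2.36 and 2.27. Tab1, an adaptor of the kinase TAK1, and the receptor Relt fell in every arm, and Casp8 fell in the 4xLPS arm (-0.71 on the log2 scale). No gene of this list was called between arms or for the difference of response by edgeR. Counts of the 49 with an unadjusted p under 0.05 follow, with the share of all genes in brackets. Unstimulated, they were 9 for 1xLPS against PBS (11.8%), 1 for 4xLPS against PBS (6.00%) and 8 for 4xLPS against 1xLPS (9.55%). After LPS they were 8 (7.66%), 17 (13.9%) and 7 (5.99%) in the same order. For the difference of response they were 10 for 1xLPS minus PBS (8.15%) and 11 for 4xLPS minus PBS (5.67%).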

How the data were processed

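RNA was measured in 18 libraries of macrophages, 3 in each of 6 groups. Per the labels' protocols, poly(A) RNA was selected from 500 ng of total RNA, libraries were sequenced on an Ion Proton, and Torrent Suite 5.12 aligned reads to mm10 with TopHat2 and then Bowtie2. Cufflinks is named there for FPKM, which were not used here. The deposited table is titled as RPM, but its values are whole numbers with unequal library sums, so they were taken as raw read counts per gene symbol as the authors deposited them, and no row lacks a gene name. The program that counted reads, its annotation and its strand setting are not stated in these sources. Titles set the groups. Each column name also holds a sample number, and the treatment field of the sample so numbered gave the column's own arm in 18 of 18 cases.

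After TMM scaling, the counts were modelled in edgeR 4.0.16 (glmQLFit and glmQLFTest, two-sided) with 1 mean per group over all 18 libraries and 12 residual degrees of freedom. Genes with at least 1 unscaled CPM in at least 3 libraries were tested, Benjamini-Hochberg adjustment ran over all 14158 tested genes of a comparison, and an adjusted p under 0.05 was called. Printed CPM are TMM-scaled, except for members under the filter. The biological coefficient of variation was 23.9%, and 3 reads in a library correspond to 0.0555 to 0.323 CPM. No pair of libraries was identical, and the counts of every pair within a group differed by more than sampling noise. Gene positions, exon lengths and shared 50-base words came from the GENCODE annotation of GRCm38, where all 38 members matched. Alternatives were DESeq2 1.42.0, other scalings and filters, fits on the compared groups alone, a replicate block and left-out libraries. Every tested member is named, and of the signalling list those with the lowest p in the PBS arm and those that fell, with R 4.3.3 used throughout. The members and the lists were chosen with earlier results of these data known. Same-numbered libraries of different groups deviated together only in PBS_NO and 4xLPS_NO (r = 0.60, 0.20 and 0.38), where the block changed no call.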

Additional observations from a re-analysis of the deposited data

How the results depend on the processing

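Of 643 values of called members under the alternatives, 584 kept their call, 59 lost it and none changed sign. Among members not called, 50 values gained a call. The number of members called in the 1xLPS response (14) fell to 9 with at least 5 CPM required, a filter that tests fewer members, and to 6 when the fit held the compared groups alone. Leaving out 1 library at a time gave 16 to 19 calls in the PBS response, 9 to 14 in the 1xLPS response (9 without 1xLPS_LPS library 2) and 11 to 13 in the 4xLPS response. It gave 0 to 3 for 1xLPS against PBS and 0 to 1 for 4xLPS against 1xLPS in unstimulated macrophages. With 1xLPS_NO library 1 and 1xLPS_LPS library 3 left out, Tnfrsf14 was called for 4xLPS against 1xLPS in unstimulated macrophages. That fit called 4 members for 4xLPS against PBS after LPS (2.43% of all genes lower and 1.67% higher). The latter comparison (0 in the main edgeR fit) gave 3 members with DESeq2 (2.30% of all genes). Tnfrsf8 and Tnfsf9 were called there with no filter on low counts, and Tnfrsf8 and Tnfrsf12a with only the compared groups. With no filter, Tnfsf9 was called for the difference of response of 4xLPS minus PBS. The shares of all genes beside the call of Tnfrsf14 and those of the no-filter and compared-groups fits are not given here. The cause of these changes was not tested. Without TMM scaling the median of all genes in the PBS response moved to -0.23 on the log2 scale, and members called kept their direction. The replicate block, entered where the numbers of the titles are shared by all groups, gave 19, 13 and 14 calls in the PBS, 1xLPS and 4xLPS responses. It ended the call of Tnfrsf12a in the 1xLPS arm (adjusted p = 0.0605), and no other call of a member changed. Same-numbered libraries did not deviate together there (r = -0.25, 0.43 and -0.13). Members near 1 CPM, such as Ltb, Tnfrsf9 and Tnfsf11, rest on few reads, which limits the precision of their fold changes.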
